A study of Saccharomyces cerevisiae with 9 samples.

Results

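The transcripts of baker's yeast, Saccharomyces cerevisiae, 30 min after a frozen culture had thawed were compared with those of the culture before it was frozen. The comparison rests on the 3 arrays of that time point, and a gene was tested when all 3 held a value for it. This was so for 3320 of the 5189 genes present on both array platforms of the series. Another 1239 genes had a value on 2 of the 3 arrays, 558 on 1 and 72 on none, and these were not tested. The values are log2 ratios, so that 1 stands for a 2-fold difference, and several spots of 1 gene were averaged.

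Both sides of each ratio came from strain S288C, a laboratory strain, grown in the rich medium YPD at 30 °C to an absorbance of 1.0 in a culture of 600 ml. For the recovering side, 400 ml were frozen at -80 °C with no cryoprotectant, kept for 1 week, warmed in a water bath of 30 °C for 25 min until thawed, and incubated again, and 100 ml were taken 30 min after thawing was complete. The side before freezing was 200 ml of culture that was never frozen. The recovering cells carry both the freeze and the thawing period, which cannot be told apart here, and the labels give no viability. The series also holds 3 arrays each at 15 and 60 min, and it calls the arrays of a time point independent biological samples. Whether arrays drew on a common culture before freezing is not said in the labels.

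Poly(A) RNA of the recovering cells was labelled with Cy5 and that of the cells before freezing with Cy3, with no exchange of the dyes. The ratio was read as recovering cells divided by cells before freezing. The sample labels make this direction likely, the tables do not state it, and each sign given here would be opposite if the ratio ran the other way. The tables hold no intensities, so they give no transcript level and no marker by which the strain could be checked.

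Thawing leaves yeast with damaged membranes, unfolded proteins and reactive oxygen species. A general programme under the transcription factors Msn2 and Msn4 and the heat shock factor Hsf1 raises chaperones, antioxidant enzymes and enzymes of trehalose and glycogen under many stresses. In the same stresses the genes for making ribosomes are commonly turned down together, since ribosome production takes up much of the transcription of a growing cell.

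The 3 arrays were not equally complete. Replicate 1, on the first platform, had a value for 5038 of 6272 spots, and replicates 2 and 3, on the second platform, for 4208 and 5225. Where a gene lacked only 1 array, it was replicate 2 for 782 genes, replicate 3 for 309 and replicate 1 for 148. The SD over genes was 0.735, 0.625 and 0.567 on replicates 1, 2 and 3. Across the 3320 genes, which are not independent replicates, the arrays correlated (Pearson's r) at 0.356 for replicates 1 and 2, 0.527 for 1 and 3 and 0.556 for 2 and 3, which share a platform. Spearman's rho for the same pairs was 0.272, 0.477 and 0.475, so replicates 1 and 2 were the least alike by either measure. The weights that limma estimated from 1657 genes were 3.77 for replicate 3 and 0.604 to 1.21 for the other arrays of the series, and a fit with these weights called 244 genes higher and 412 lower. Array number and platform are tied together, so the first platform and replicate 1 cannot be told apart.

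In the limma fit over all 9 arrays, 76 genes were higher 30 min after the thaw (2.29% of those tested) and 68 were lower (2.05%), or 144 together (4.34%), at an adjusted p under 0.05. The genes that rose were led by small heat shock proteins, an inducible Hsp70, general stress genes and genes of iron uptake. Of the 68 genes that fell, 29 stood in the 2 lists of ribosome assembly, which held 58 and 54 of the 3320 genes tested. The rises were the larger ones: 15 of the 76 genes rose at least 4-fold, against 0 of the 68 that fell. The median of the means was 1.39 for the genes that rose and -1.17 for those that fell, while all 3320 genes had a median of -0.08 and 5th and 95th percentiles of -0.80 and 0.81. Each of the 144 genes had the same sign on all 3 arrays. Without a test, 642 of all genes (19.3%) lay above 0 on all 3 arrays and 845 (25.5%) below. All 3 arrays showed over 2-fold higher values for 37 genes (1.11%) and over 2-fold lower values for 12 (0.361%).

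**Figure D1:**
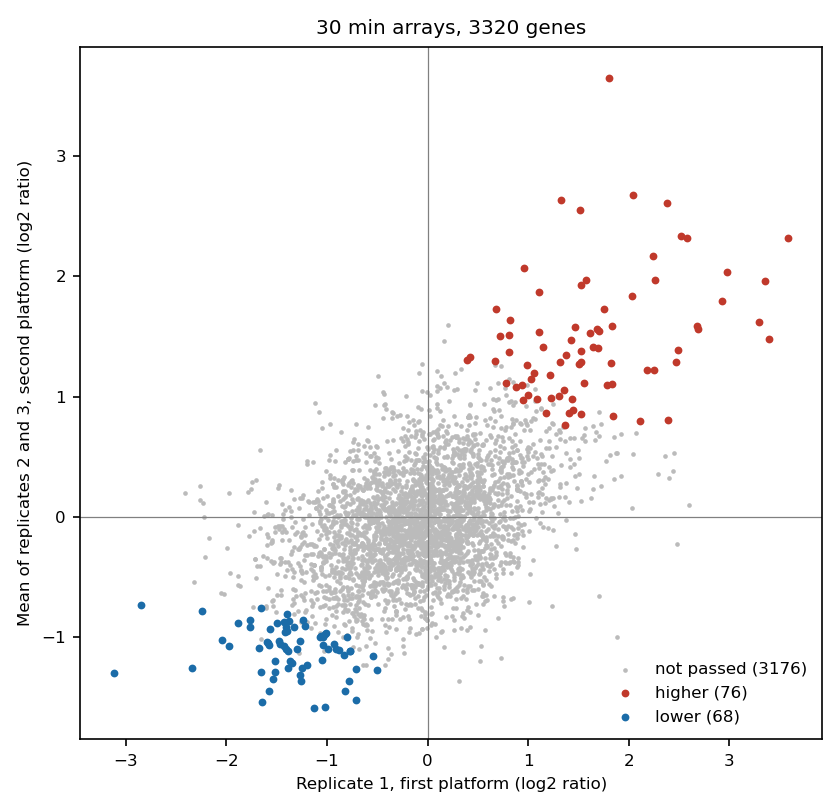
Log2 ratio of each of the 3320 genes on replicate 1 (x axis, first platform) and the mean of replicates 2 and 3 (y axis, second platform), with red points for the 76 genes that were higher, blue for the 68 that were lower and grey for the rest. The genes that passed lie in the upper right and lower left corners, at or beyond a mean of 0.96 and -0.93, and HSP12 stands at the top.

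The number of genes that passed depended on each array. Without replicate 1 it was 22 higher and 5 lower, without replicate 2 it was 11 and 3, and without replicate 3 it was 58 and 26. Only 10 of the 144 genes passed whichever array was left out. They were HSP12, MSC1, SSA4, FIT2, FMP16, ARO9, SPI1, BTN2 and MET17, which were higher, and RTP1, which was lower. The other 134 passed with all 3 arrays but not in at least 1 of these smaller fits. At an unadjusted p under 0.05 there were 609 genes, 263 higher and 346 lower, and 24 genes with a mean over 1 and 17 with a mean under -1 did not pass.

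HSP12 (YFL014W), a small heat shock protein that binds membranes, rose the most of all genes tested. Its log2 ratios were 1.81, 4.10 and 3.20 on replicates 1, 2 and 3, a mean of 3.03 ± 0.34 (standard error from limma, n = 3; 8.19-fold; adjusted p = 2.77e-06). Replicate 1 was the lowest of the 3 and still over 2-fold. SSA4 (YER103W), an Hsp70 chaperone made under stress, was at 2.38, 3.15 and 2.07 (mean 2.53 ± 0.30, 5.79-fold, adjusted p = 4.59e-06). HSP26 (YBR072W), a small heat shock protein that holds unfolded proteins, was at 1.52, 2.87 and 2.23 (mean 2.21 ± 0.32, 4.62-fold, adjusted p = 7.06e-05). BTN2 (YGR142W), which gathers misfolded proteins into deposits, was at 2.93, 2.28 and 1.31 (mean 2.17 ± 0.32, 4.51-fold, adjusted p = 8.34e-05). The arrays did not rank these genes alike: replicate 2 was the highest for HSP12, SSA4 and HSP26, and replicate 1 for BTN2. Each hybridization used RNA of a whole culture, so fewer cells with a transcript and less of it per cell cannot be told apart.

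Of all 3320 genes tested 2.29% rose, and 19.3% lay above 0 on all 3 arrays. At an unadjusted p under 0.05 in limma, 263 of them were higher and 346 lower. In the list of disaggregases, small heat shock proteins and sequestrases, 4 of 8 tested genes rose and 0 fell, with a median of 1.27. Without replicates 1, 2 and 3 in turn, 3, 2 and 4 passed. HSP12 is counted both in this list and in that of eisosomes. The disaggregase HSP104 was at 1.83, 1.55 and 1.01 (mean 1.46 ± 0.29). Of 15 cytosolic Hsp70s and exchange factors 2 rose and 0 fell, namely SSA4 and SSA1, and the list's median was 0.04, and 0.14 without replicate 2. SSA1, another cytosolic Hsp70, was at 1.15, 1.82 and 1.00 (mean 1.32 ± 0.33). Its sequence is nearly identical to that of SSA2 (mean 0.46 ± 0.29, not passed), so the split of signal between the pair is uncertain. For Hsp90 and its co-chaperones limma called 0 of 10 genes, although 6 were higher and 1 lower at an unadjusted p under 0.05, and the median was 0.71. The 26S proteasome, which degrades ubiquitin-tagged proteins, also had 0 of 33 passed, with 8 higher and 0 lower at an unadjusted p under 0.05. Its genes leaned one way, with 17 of 33 above 0 on all 3 arrays, 0 below and a median of 0.48. Ubiquitin and Cdc48 genes had 1 of 16 passed, the polyubiquitin gene UBI4 at 1.38, 1.72 and 0.97 (mean 1.36 ± 0.28), and a median of 0.57. Folding genes of the endoplasmic reticulum had a median of -0.03 and 1 of 14 passed, ERO1, the oxidase that drives disulfide formation there (mean 0.97 ± 0.27). That list's median turned to 0.14 without replicate 1 and 0.06 without replicate 3.

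**Figure D2:**
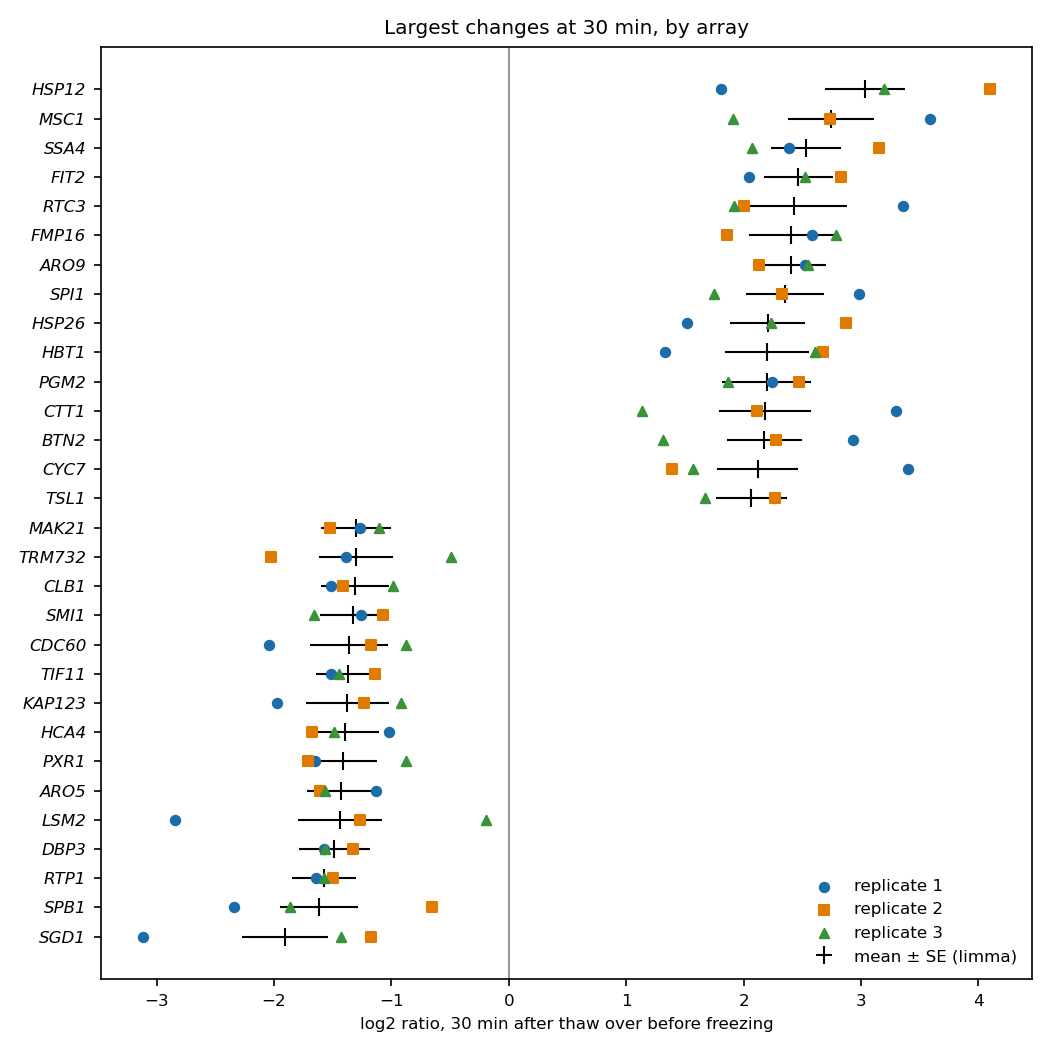
Log2 ratio (x axis) of the 15 largest rises and 15 largest falls that passed, with a circle, square and triangle for replicates 1, 2 and 3 and a black bar for the limma mean ± SE. All points of the rises lie above 1 and all points of the falls below 0, with LSM2 the widest of the falls, from -2.85 to -0.19.

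General stress genes of the Msn2/4 type gave 9 rises and 0 falls among 16 tested, with a median of 1.27, and 13 of the 16 lay above 0 on all 3 arrays. The shares over all genes tested were 2.29% for rises and 19.3% for values above 0 on all 3 arrays. MSC1 (YML128C), named for a role in meiotic recombination, was at 3.59, 2.73 and 1.91 (mean 2.74 ± 0.37, 6.69-fold, adjusted p = 2.40e-05). SPI1 (YER150W), a cell wall protein, was at 2.98, 2.33 and 1.75 (mean 2.35 ± 0.33, 5.11-fold, adjusted p = 5.37e-05). CTT1 (YGR088W), the cytosolic catalase, was at 3.30, 2.11 and 1.14 (mean 2.18 ± 0.39, 4.54-fold, adjusted p = 0.00100). All 3 of these genes were highest on replicate 1 and lowest on replicate 3. RTC3 (YHR087W) was at 3.36, 2.00 and 1.92 (mean 2.43 ± 0.45, 5.38-fold) and FMP16 (YDR070C) at 2.58, 1.85 and 2.78 (mean 2.41 ± 0.36, 5.30-fold). HBT1 (YDL223C), a protein of the mating projection tip, was at 1.33, 2.67 and 2.61 (mean 2.20 ± 0.36, 4.60-fold). The other 3 that rose had means between 1.19 and 1.94. Without replicates 1, 2 and 3 in turn, 4, 3 and 9 genes of the list passed. The 12 tested stress transcription factors and kinases had a median of 0.20, or 0.10 without replicate 1 and 0.06 without replicate 2, with 0 called by limma and 2 at an unadjusted p under 0.05.

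Reserve carbohydrate genes rose at several steps, where 2.29% of all genes tested rose. TSL1 (YML100W), a regulatory subunit of trehalose synthase, was at 2.26, 2.27 and 1.67 (mean 2.07 ± 0.31, 4.19-fold, adjusted p = 0.000122). PGM2 (YMR105C), the main phosphoglucomutase, was at 2.24, 2.47 and 1.87 (mean 2.19 ± 0.38, 4.58-fold, adjusted p = 0.000548). Both genes were over 2-fold higher on every array. In trehalose metabolism 2 of 5 genes rose, the other being the phosphatase TPS2 (1.60 ± 0.33), with a list median of 0.91, and 1, 0 and 2 passed without replicates 1, 2 and 3 in turn. In glycogen metabolism 4 of 11 rose: PGM2, the phosphorylase GPH1 (1.503 ± 0.32), the synthase GSY2 (1.35 ± 0.33) and the UDP-glucose enzyme UGP1 (1.05 ± 0.30). The glycogen list was mixed, with a median of 0.36, members from -0.59 to 2.19 and a median of 0.16 without replicate 2. Without replicates 1, 2 and 3 in turn, 1, 0 and 3 of its genes passed.

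Most of the genes that deal with oxidants did not pass, but the share that rose was above the 2.29% of all genes tested. Of 22 thioredoxin, peroxiredoxin and glutathione genes 3 rose and 0 fell (median 0.53). The peroxiredoxin AHP1 was at 1.62, 1.91 and 1.14 (mean 1.56 ± 0.29), the mitochondrial peroxiredoxin PRX1 at 1.11, 1.86 and 1.22 (mean 1.40 ± 0.30) and the glutaredoxin GRX1 at 0.68, 1.99 and 1.46 (mean 1.38 ± 0.32). Replicate 2 was the highest for each of the 3, and 0 of the 22 passed without it. Of 15 genes of catalase, superoxide dismutase and other oxidant defence, 3 rose and 1 fell (median 0.31, and 0.18 without replicate 1), and without replicates 1, 2 and 3 in turn 0, 0 and 3 rose and 0 fell. Besides CTT1 these were the reductase GRE2 (1.67 ± 0.32) and ZTA1, a quinone reductase relative (1.37 ± 0.31). YHB1, the flavohemoglobin that breaks down nitric oxide, fell, with -1.05, -0.63 and -1.75 on the 3 arrays (mean -1.14 ± 0.29, 2.21-fold lower, adjusted p = 0.0195).

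Among iron uptake and siderophore genes 4 of 16 rose and 0 fell, with a median of 0.46 and 10 of 16 above 0 on all arrays. Over all genes tested these shares were 2.29% for rises and 19.3% for values above 0 on all arrays. FIT2 (YOR382W), which holds iron-bearing siderophores in the cell wall, was at 2.04, 2.83 and 2.52 (mean 2.47 ± 0.29, 5.53-fold, adjusted p = 7.55e-06). The siderophore transporters SIT1 (1.52, 1.88 and 1.98; mean 1.79 ± 0.31) and ENB1 (1.11, 2.54 and 1.20; mean 1.62 ± 0.31) also rose. FET3, the multicopper oxidase of high-affinity iron uptake, was at 1.76, 2.28 and 1.18 (mean 1.74 ± 0.30). Every one of these 12 values was over 2-fold. Without replicates 1, 2 and 3 in turn, 4, 1 and 4 of the 16 passed. The copper, zinc and metallothionein list had 1 of 16 passed, COT1, a vacuolar transporter of zinc and cobalt (0.95, 0.99 and 0.96; mean 0.97 ± 0.27).

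In carbon and energy metabolism the rises lay on particular enzymes, and among all genes tested 2.29% rose. GLK1, a glucokinase, was at 2.47, 0.82 and 1.77 (mean 1.68 ± 0.36) and was the only one of 23 genes of glycolysis and alcohol fermentation to pass. NQM1, a transaldolase, was at 2.68, 1.48 and 1.70 (mean 1.95 ± 0.33), while RKI1, ribose-5-phosphate isomerase of the same pentose phosphate pathway, fell (-1.24, -1.07 and -0.64; mean -0.98 ± 0.28). In the TCA cycle 3 of 19 rose, namely PYC1, a pyruvate carboxylase (1.07 ± 0.31), and both subunits of the mitochondrial isocitrate dehydrogenase, IDH2 (1.37 ± 0.32) and IDH1 (1.45 ± 0.32). The TCA median of 0.16 turned to -0.05 without replicate 1, and 1, 0 and 4 genes passed without replicates 1, 2 and 3 in turn. Of 26 respiratory chain and ATP synthase genes 2 rose, CYC7 and COX5B, with a list median of 0.05 that turned to -0.06 without replicate 1 and -0.12 without replicate 2. GPD1, the glycerol-3-phosphate dehydrogenase of glycerol synthesis, was at 2.39, 0.84 and 0.77 (mean 1.33 ± 0.38, adjusted p = 0.0389). It rested on replicate 1, since its mean without that array was 0.80 (adjusted p = 0.513).

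ARO9 (YHR137W), the aminotransferase that starts the breakdown of aromatic amino acids, was at 2.52, 2.13 and 2.55 (mean 2.40 ± 0.30, 5.28-fold, adjusted p = 7.93e-06). It was 1 of 4 tested genes of that pathway and the only one to pass. MET17, the sulfhydrylase that fixes sulfide into homocysteine, was at 1.58, 1.63 and 2.32 (mean 1.84 ± 0.28, 3.58-fold, adjusted p = 0.000157). It was the only one of 19 genes of sulfur, methionine and cysteine metabolism to pass. Single rises in other lists were MAG1, a DNA glycosylase of alkylation repair (1.18 ± 0.30), and the mRNA cap hydrolase DCS1 (1.54 ± 0.32). For the counts of this paragraph, 2.29% of all genes tested rose and 2.05% fell. Autophagy and vacuolar proteases had 2 rises of 16, the aminopeptidase APE3 (1.53, 2.00 and 0.76; mean 1.43 ± 0.29) and the autophagy receptor ATG19 (0.96 ± 0.28). Eisosomes, plasma membrane furrows, had 2 of 8 tested list members risen, HSP12 and the core component LSP1 (0.72, 1.54 and 1.47; mean 1.24 ± 0.33), and a median of 0.80 that was 0.48 without replicate 1. In the cell wall list CWP1, a mannoprotein, rose (0.39, 0.89 and 1.71; mean 1.00 ± 0.29) and KNH1, of glucan synthesis, fell (-1.09 ± 0.31), among 38 tested. Without replicate 3 the mean of CWP1 was 0.64 (adjusted p = 0.476).

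**Figure D3:**
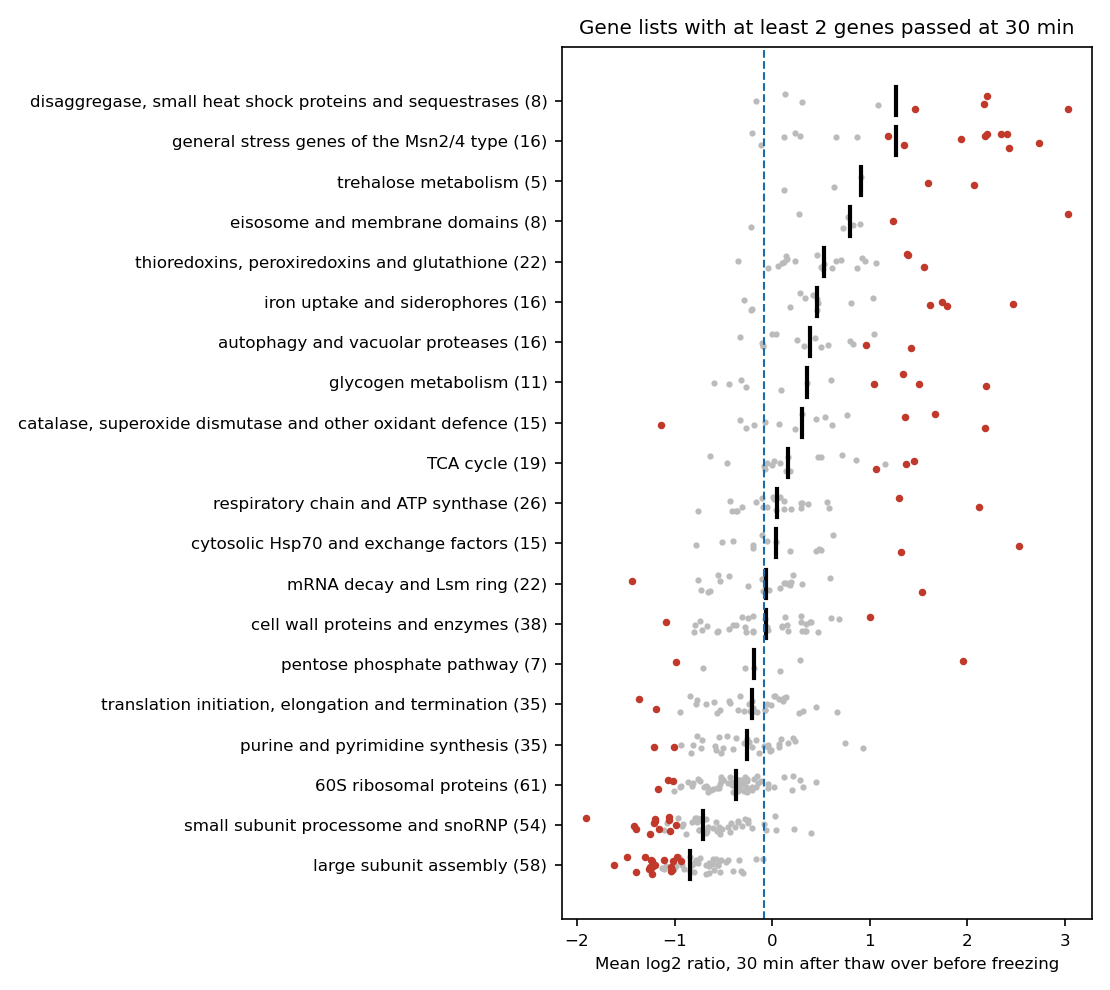
Mean log2 ratio (x axis) of every tested gene in the 20 lists with at least 2 genes passed, with the number tested in brackets, red points for genes that passed, grey for the rest, a black bar for the list median and a dashed line for the median of all genes (-0.08). Large subunit assembly (-0.84) and the small subunit processome (-0.71) lie lowest, and the disaggregase and general stress lists (both 1.27) highest.

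Many of the genes that fell take part in making ribosomes. For comparison, 2.05% of all genes tested were lower and 25.5% lay below 0 on all 3 arrays. Assembly of the large subunit had 18 of 58 tested genes lower and 0 higher, a median of -0.84, and 51 of the 58 below 0 on all 3 arrays. No member had a mean above 0, the highest being at -0.09. The small subunit processome and snoRNP list, whose proteins fold and cut the precursor of the small subunit RNA, had 12 of 54 lower and 0 higher (median -0.71), with 41 below 0 on all arrays. The medians on replicates 1, 2 and 3 were -1.01, -0.73 and -0.80 for the large subunit list and -0.77, -0.49 and -0.70 for the small subunit list, so each array showed the same side. The number that passed was less stable than the medians: without replicates 1, 2 and 3 in turn it was 3, 1 and 7 for the large subunit list and 1, 1 and 3 for the small subunit list.

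SGD1 (YLR336C), a nucleolar protein of small subunit maturation, fell the most, at -3.11, -1.18 and -1.43 (mean -1.91 ± 0.36, 3.75-fold lower, adjusted p = 0.00230). SPB1 (YCL054W), a methyltransferase of ribosomal RNA, was at -2.34, -0.65 and -1.87 (mean -1.62 ± 0.33, 3.07-fold lower, adjusted p = 0.00342). DBP3 (YGL078C), a helicase of large subunit assembly, was at -1.57, -1.33 and -1.56 (mean -1.49 ± 0.30, 2.80-fold lower, adjusted p = 0.00312). Replicate 1 was far below the others for SGD1, while the 3 arrays lay close together for DBP3. PXR1 (YGR280C) was at -1.65, -1.71 and -0.87 (mean -1.41 ± 0.29) and HCA4 (YJL033W), a helicase that frees a snoRNA from the precursor, at -1.02, -1.68 and -1.49 (mean -1.39 ± 0.29). MAK21 (YDR060W), needed for export of the large subunit, was at -1.27, -1.52 and -1.10 (mean -1.30 ± 0.30). ESF1, another nucleolar protein, fell as well (-1.25, -0.76 and -1.76; mean -1.26 ± 0.30).

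By the means over the 3 arrays, ribosomal protein genes had medians nearer to 0 than the assembly factors. This did not hold on each array. On replicate 1 the small subunit genes (-0.95) lay further from 0 than the small subunit processome list (-0.77). Of 61 tested genes of the large subunit 3 fell and 0 rose (median -0.37), and of 48 of the small subunit 1 fell and 0 rose (median -0.46). Of all genes tested 2.05% fell, and 1 of 48 is near that share. RPL6B was at -0.78, -1.37 and -1.36 (mean -1.17 ± 0.31), RPL17A at -0.98, -1.15 and -1.05 (mean -1.06 ± 0.28) and RPL27B at -1.06, -1.17 and -0.82 (mean -1.02 ± 0.28). RPS7A was at -1.42, -1.19 and -0.56 (mean -1.06 ± 0.29). All 4 missed the threshold without replicate 1 or without replicate 2. RPL6B, RPL17A and RPL27B missed it without replicate 3 as well, where RPS7A passed in limma (adjusted p = 0.0453). The median of the small subunit genes was -0.95, -0.30 and -0.05 on replicates 1, 2 and 3, and it was -0.17 without replicate 1. Most of these proteins are encoded by a pair of near-identical genes, so the value of a single copy is uncertain.

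A set of genes shared almost 1 value on replicates 1 and 3, which touches the ribosomal protein and glycolysis results. The genes ENO1, TDH2, TDH3, RPL10 and TEF2, which encode abundant enzymes, a ribosomal protein and an elongation factor, were picked after their values were seen. They lay within 0.00191 of each other around 0.894 on replicate 1, within 0.0130 around 0.256 on replicate 2 and within 0.00558 around 0.200 on replicate 3. A window 0.01 wide around these centres held 27 genes on replicate 1, 23 on replicate 2 and 75 on replicate 3, against medians of 7, 21 and 33 in 8 neighbouring windows. The counts of replicates 1 and 3 include the 5 genes themselves. On replicate 2 the 5 genes spanned more than the window, and its neighbours held 17 to 28 genes, so that array showed no excess. On replicate 3 the window held 18 of 109 tested ribosomal protein genes (16.5%), against 1.62% of all genes with a value. Without the members inside the windows of replicates 1 or 3 the median was -0.54 for the small subunit genes, -0.41 for the large subunit genes, and 0.20 in place of 0.35 for glycolysis, which stood at 0.22 without replicate 1. None of the 144 genes that passed lay in the windows of replicates 1 or 3. The window of replicate 3 lies below the lowest value there of a gene that rose (PYC1, 0.305), so this is no check on that array. The tables hold no intensities or flags, and the cause of the shared values was not tested.

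Other parts of the translation machinery had medians below that of all genes, with few calls. Of all genes tested 2.05% fell and 25.5% lay below 0 on all 3 arrays, so 1 call in a list of 30 is near that share. Of 22 aminoacyl-tRNA synthetases 1 fell, CDC60, which charges leucine tRNA (-2.04, -1.17 and -0.87; mean -1.36 ± 0.33), and 15 of 22 were below 0 on all arrays (median -0.63). Of 35 factors of initiation, elongation and termination 2 fell, TIF11, initiation factor eIF1A (-1.52, -1.14 and -1.45; mean -1.37 ± 0.28, adjusted p = 0.00284), and DED1, a helicase of initiation (-1.19 ± 0.33). This list's median of -0.20 was -0.42 without replicate 2. Among 30 genes of RNA polymerases I and III 1 fell, RPO31, the largest subunit of polymerase III (-0.50, -0.97 and -1.57; mean -1.02 ± 0.29), with a median of -0.35. The nuclear exosome, which trims ribosomal RNA precursors, had 1 of 14 lower, the helicase MTR4 (-1.60, -1.15 and -0.94; mean -1.23 ± 0.28), and all 14 means were below 0 (median -0.57). KAP123, an importin that carries ribosomal proteins into the nucleus, was at -1.98, -1.23 and -0.92 (mean -1.38 ± 0.35) and was the only one of 15 transport genes to pass. RNA polymerase II, the chaperonin CCT with prefoldin, and the mitochondrial ribosome had medians of -0.08, -0.02 and -0.04, the former pair turning to 0.05 and 0.04 without replicate 1. Of their 18, 12 and 55 tested genes limma called 0, and 0, 0 and 1 had an unadjusted p under 0.05.

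Falls outside these groups were spread over several functions, where 2.05% of all genes tested fell. RTP1 (YMR185W), needed for assembly and nuclear import of RNA polymerase II, was at -1.65, -1.50 and -1.58 (mean -1.57 ± 0.28, 2.98-fold lower, adjusted p = 0.000742). Its 3 arrays were close together, and it was the only gene among the falls that passed whichever array was left out. ARO5 (YGL117W) was at -1.13, -1.61 and -1.57 (mean -1.43 ± 0.28), and SMI1 (YGR229C), which regulates cell wall synthesis, was at -1.26, -1.07 and -1.66 (mean -1.33 ± 0.28). CLB1 (YGR108W), a B-type cyclin of mitosis, was at -1.52, -1.41 and -0.99 (mean -1.31 ± 0.29), the only one of 19 cyclins and cell cycle regulators to pass. TRM732 (YMR259C), a partner in tRNA methylation, was at -1.39, -2.03 and -0.49 (mean -1.30 ± 0.31). LSM2 (YBL026W), of the ring that binds the ends of decaying and spliceosomal RNAs, was at -2.85, -1.27 and -0.19 (mean -1.44 ± 0.36, adjusted p = 0.0161), and its mean without replicate 1 was -0.73 (adjusted p = 0.479). In the biosynthesis lists the falls were PRS4 (-1.21 ± 0.33) and URA1 (-1.001 ± 0.29) of 35 purine and pyrimidine genes, LYS4 of lysine synthesis (-1.08 ± 0.29) and CYB5, cytochrome b5, of 26 ergosterol genes (-1.28 ± 0.30). URA1 rested on replicate 3, with a mean of -0.66 without it (adjusted p = 0.451).

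Pairs of genes for alternative forms of 1 protein or step gave a view within pathways. Of 30 pairs, 20 had both genes tested. The form listed first, in most cases the one known to be made under stress, respiration or low oxygen, passed alone in 9 pairs, the other form alone in 1, neither in 10 and both in 0. By mean the first form was above its partner in 15 of 20 pairs, and on all 3 arrays in 11. The pairs were chosen with earlier results of these data known, so these counts only describe the pairs listed. The difference within a pair was not tested. HXK2 stands in 2 of the pairs.

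CYC7, the cytochrome c isoform of low oxygen and stress, was at 3.40, 1.39 and 1.57 (mean 2.12 ± 0.34, adjusted p = 0.000319). The main isoform CYC1 was at -0.66, -1.01 and -0.60 (mean -0.76 ± 0.29, not passed), below 0 on every array. COX5B, the low-oxygen isoform of a cytochrome oxidase subunit, was at 1.32, 1.26 and 1.32 (mean 1.30 ± 0.31), and COX5A at 0.66, -0.01 and -0.51 (mean 0.05 ± 0.30). The phosphoglucomutase PGM1 was at -0.20, 0.00 and -0.61 (mean -0.27 ± 0.28), all below the values of PGM2. GSY1, the lesser glycogen synthase, was at -0.79, 0.24 and -0.40 (mean -0.32 ± 0.34), against 1.83, 1.59 and 0.61 for GSY2. ARO8, the aminotransferase of aromatic amino acid synthesis, was at -0.72, -0.27 and -1.27 (mean -0.75 ± 0.31), where ARO9 was above 2 throughout. In these 5 pairs the lowest array of the first form lay above the highest array of the second. The same held for SSA4 with SSA2, GLK1 with HXK2, TSL1 with TPS3 and, narrowly, GPD1 with GPD2 (0.770 against 0.763). Together these are the 9 of 20 pairs in which the first form passed alone. GPD2, the other glycerol-3-phosphate dehydrogenase, was at 0.76, -0.57 and -0.91 (mean -0.24 ± 0.38). The single pair in which only the second form passed was GRX2 (1.06 ± 0.32, adjusted p = 0.0548) with GRX1 (adjusted p = 0.0102). For UBC5 and UBC4, TSA2 and TSA1, and ALD4 and ALD6 both forms had means between 0.53 and 1.06 and neither passed.

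**Figure D4:**
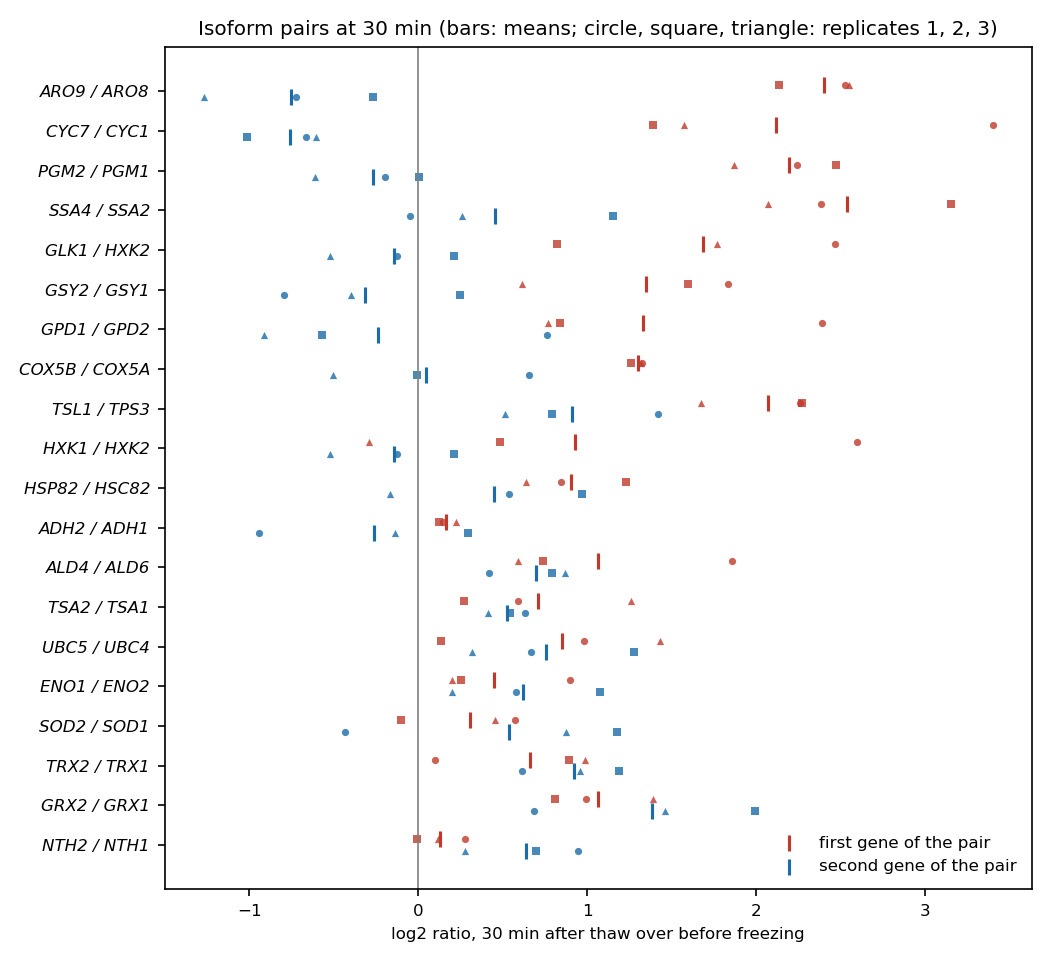
Log2 ratio at 30 min (x axis) of both genes in the 20 pairs, with red for the first form and blue for the second, circles, squares and triangles for replicates 1, 2 and 3, and bars for the means. Pairs are ordered from ARO9 and ARO8, with means of 2.40 and -0.75, down to NTH2 and NTH1, with 0.13 and 0.64.

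The 30 min arrays were set against the earlier and later arrays by a test of the difference in the same fit. Of 1853 genes with all values at 15 and 30 min, 0 were higher (0.0%) and 0 lower (0.0%) at 30 min in limma, 28 and 24 were so at an unadjusted p under 0.05, and the smallest adjusted p was 0.972. Among the differences that came nearest to passing in limma were those of MTR4 (-1.20 ± 0.40, adjusted p = 0.972) and APE3 (1.17 ± 0.41), and HSP26 differed by 1.28 ± 0.45. HSP26 stood at 0.93 at 15 min, 2.21 at 30 min and 3.99 at 60 min. The median standard error of this difference was 0.42.

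Of 2457 genes with all values at 30 and 60 min, 0 were higher (0.0%) and 1 was lower (0.0407%) at 60 min, with 137 and 131 at an unadjusted p under 0.05. The 1 gene was OLE1, the fatty acid desaturase of the endoplasmic reticulum, which differed by -2.66 ± 0.52 (adjusted p = 0.0437). Its 30 min arrays were 2.48, -0.41 and -0.04 and its 60 min arrays -2.41, -1.49 and -2.06. Replicate 1 alone was high at 30 min, and without replicate 1 or 2 of that time 0 genes passed, OLE1 having a 30 min mean of -0.23 without replicate 1. Same-numbered arrays of these times deviated together, so the fit was repeated with replicate number as a block, and 18 genes were higher (0.733%) and 15 lower (0.611%) at 60 min. Among them HSP26 differed by 1.78 ± 0.40 (adjusted p = 0.0127), the phosphatidylinositol synthase PIS1 by 2.17 ± 0.38 (adjusted p = 0.000596) and the ribosomal protein gene RPS15 by 1.90 ± 0.38 (adjusted p = 0.00323). On the low side was EIS1, of eisosomes (-1.95 ± 0.39, adjusted p = 0.00340).

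For genes with values on all 9 arrays, the levels at the 3 times are given side by side as a description, since the genes were chosen by their 30 min values. The 50 such genes that rose at 30 min had median ratios of 0.88 at 15 min, 1.35 at 30 min and 1.61 at 60 min. The 44 that fell had medians of -0.69, -1.18 and -1.36, while all 1657 genes with 9 values had medians of -0.09, -0.09 and -0.03. The array medians of the genes that rose lay between 0.73 and 1.12 at 15 min, between 1.15 and 1.55 at 30 min and between 0.99 and 2.03 at 60 min, so those of 30 and 60 min overlapped. Large subunit assembly (38 genes) stood at -0.58, -0.93 and -1.24, and thioredoxins, peroxiredoxins and glutathione (17 genes) at 0.40, 0.62 and 1.07. Disaggregases and small heat shock proteins (7 genes) stood at 0.93, 1.46 and 1.42, and the pentose phosphate pathway (5 genes) at 0.28, -0.19 and 0.27. The 30 min median of all 7 tested pentose phosphate genes, also -0.19, turned to 0.12 without replicate 3. No test was made of the course over time of any list.

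**Figure D5:**
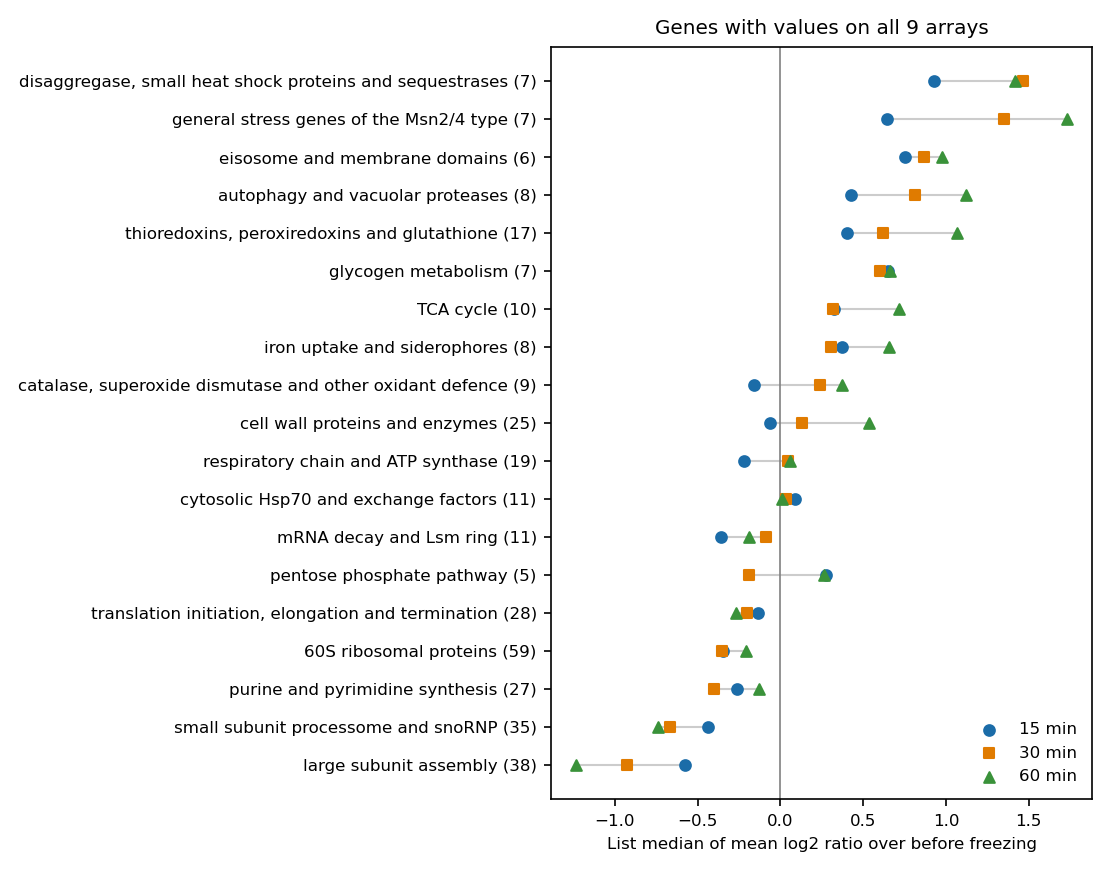
Median over genes with values on all 9 arrays of the mean log2 ratio against the culture before freezing (x axis) at 15 min (circle), 30 min (square) and 60 min (triangle), for the 19 lists with at least 2 genes passed at 30 min and at least 5 such genes, whose number is in brackets. Large subunit assembly runs from -0.58 to -1.24, and the 30 min square lies between the other times in some lists and at one end in others.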

How the data were processed

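Messenger RNA was measured on 9 two-colour arrays, 3 at each of 15, 30 and 60 min after thawing. The authors deposited log2 ratios, LOWESS-normalized within each array from spots with flag value 0, per the labels. The log base was read from the lowest deposited value, the log2 of 0.01. Scanner, background correction and the meaning of the flags have no description in the labels used here, and values were used as deposited, with none filled in. Gene symbols came from the platform annotation, which gave 5297 and 5291 of 6272 spots a symbol on the first and second platform and none several. Of the 5189 genes on both platforms 5185 matched RefSeq assembly R64, used for names and gene order only. For 3 genes (APE2, PFF1 and FLO8) spots differed by over 1 log2 unit on a 30 min array, and none of them is named as a result.

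All 9 arrays were fitted with limma 3.58.1 in R 4.3.3 (lmFit and eBayes), with 1 mean per time. The 30 min mean was tested against 0 and against the other times, two-sided, with Benjamini-Hochberg adjustment over all genes tested and a threshold of 0.05. Standard errors share a spread over the 9 arrays, drawn by eBayes towards that of all genes. This prior had 22.5 degrees of freedom, against 6 from the arrays of a gene with 9 values. The precision is limited by 3 arrays per time. Where arrays shared a culture before freezing, the test leaves out the spread between such cultures. The fit was tested on simulated data. Python 3.11.15 and matplotlib 3.10.9 made the tables and figures.

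Genes were named by rule: the 15 largest rises and falls with a standard name, up to 4 passed members of each of 58 gene lists, 30 isoform pairs, the 5 largest means that did not pass, the 5 genes on each side of the threshold, and up to 5 genes per direction for each pair of times. Named outside this rule, after their values were seen, were the genes of a shared value, the chromosomal neighbours and the genes in no list. Members, lists and pairs were chosen with earlier results of these data known. The promoter search of that rule was not run, and no sequence is given. Replicate numbers were taken from the titles. Deviations of same-numbered arrays from their time's mean correlated, over 1657 genes, at 0.468, 0.387 and 0.141 between 30 and 60 min and at 0.0392, 0.166 and 0.168 between 15 and 30 min, so only the former times were treated as paired, by the rule that all exceed 0.1. Alternatives covered left-out arrays, the replicate block, the second platform alone, centring, scaling, array weights, spread and filters, and, added after seeing the data, a platform term and the shared-value windows.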

Additional observations from a re-analysis of the deposited data

Results flagged for a closer look

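OLE1, the fatty acid desaturase, was the 1 gene whose 30 and 60 min means differed in limma, by -2.66. At 30 min its first array was far above the other arrays of that time. With a replicate block its adjusted p was 0.000128.

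Among the 148 genes named by rule, some of them for a difference between times, 5 had every array of 30 min on one side of 0 and every array of another time on the other side. Over all genes with values at both times this was so for 30 of 1853 at 15 and 30 min and for 52 of 2457 at 30 and 60 min. ADR1, a transcription factor of ethanol and fat use, stood at -0.43 at 30 min and 0.58 at 15 min. PSA1, which makes GDP-mannose, stood at 0.32 at 30 min and -0.89 at 15 min, and the ribosomal protein gene RPS2 at 0.31 and -0.77. CIT2, the peroxisomal citrate synthase, stood at 0.45 at 30 min and -1.31 at 60 min, and EIS1 at 0.83 and -1.12. The difference itself did not pass in limma for any of these (adjusted p = 0.972 for the 3 against 15 min, 0.173 for CIT2 and 0.140 for EIS1), and with a replicate block CIT2 (0.0128) and EIS1 (0.00340) passed.

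Spots without a gene symbol were left out of the comparisons by gene. Of 240 such spots tested 1 was higher and 7 were lower at 30 min (3.33%, below the 4.09% of all 3617 spots), with means of 1.45 for the higher one and down to -1.32 for the lower ones. They are unnamed here. Single values in groups of 3 arrays were not tested as outliers.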

How the results depend on the processing

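Over the 3320 genes, the counts of higher and lower genes (76 and 68) moved with most settings. Leaving out 1 array of 30 min gave 11 to 58 higher and 3 to 26 lower genes, and the share of calls that were higher rose from 52.8% to between 69.0% and 81.5%. Replicates 2 and 3 of every time alone, which share the second platform, gave 29 and 5 (85.3% higher). Scaling arrays to 1 median absolute deviation gave 153 and 182, array weights 244 and 412 (37.2% higher), and the 3 arrays of 30 min on their own 159 and 154. Centring arrays on their medians gave 61 and 42. A value on at least 2 of 3 arrays (98 and 67 of 4559 genes), every spot on its own (73 and 75), the lowest value taken as missing (76 and 68), robust eBayes (73 and 65) and a platform term added after seeing the data (70 and 63) stayed within 1.5 times. The cause of these moves was not tested, beyond the smaller number of arrays in some. No gene that passed changed sign in any of these settings. Each had 1 sign on all 3 arrays, so leaving out, scaling or weighting arrays could not have turned it, and this is no check. The 10 genes that passed whichever array was left out also passed in all 13 alternatives by gene.

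With replicate number as a block, 184 genes were higher and 202 lower at 30 min. The block takes the spread between replicate numbers out of the error, and a test against 0 should carry that spread. These counts are therefore not on the same footing as those of the main fit. With the same block, 33 genes differed between 60 and 30 min. That count was 1 in the fit without the block, 0 to 5 with 1 array of 30 min left out, 2 with array weights, and 0 with the second platform alone, median centring, 1 median absolute deviation or a platform term. Between 30 and 15 min 0 genes passed in limma in every setting run, the block included. The arrays of 15 and 30 min did not meet the rule for pairing, although the block covered those of 15 min as well.

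Of 58 list medians, 25 values in 18 lists turned sign, 24 with an array left out and 1 with scaling, in glycerol and osmotic stress (0.00059 to -0.0094). The tables hold no intensities, so no limit by signal over background can be given.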

Other observations

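Of the genes that passed, 27 that rose and 21 that fell were in no list, and those given here were chosen after their values were seen. All 3 YET genes, relatives of a mammalian endoplasmic reticulum protein, rose, YET1 at 1.36, 0.90 and 1.20 (mean 1.15 ± 0.31), YET3 at 1.05, 1.07 and 1.33 (1.15 ± 0.30) and YET2 at 1.00, 1.17 and 0.86 (1.01 ± 0.28). Glycosylation genes of that compartment were GPI10, of GPI anchor synthesis (1.11 ± 0.27), and OST1, of the oligosaccharyltransferase (1.03 ± 0.30, and 0.61 without replicate 2, adjusted p = 0.440). GFA1, the first enzyme of chitin precursor synthesis, was at 2.11, 1.14 and 0.45 (1.23 ± 0.36), and at 0.79 without replicate 1 (adjusted p = 0.513). GAD1, glutamate decarboxylase, was at 2.03, 2.53 and 1.14 (1.90 ± 0.30, 3.73-fold). CNB1, the regulatory subunit of calcineurin, was at 1.03, 1.14 and 1.16 (1.11 ± 0.27). On the low side were ribosome-related genes that the lists did not hold, such as FYV7 (-1.22 ± 0.30), BUD22 (-1.18 ± 0.30) and NOP19 (-1.08 ± 0.30), and the histone modifiers HDA1, a deacetylase (-1.11 ± 0.29), and BRE1, a ubiquitin ligase (-1.02 ± 0.30).

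Of 78 tested chromosomal neighbours of genes that rose 6 also rose (7.69%, against 2.29% of all genes), and of 77 neighbours of genes that fell 4 also fell (5.19%, against 2.05%). This is a description of few pairs. They were ZTA1 with FMP23, ARO9 with YHR138C, YML131W with ERO1, TRM732 with TIF11, and RKI1 with RPS7A. RTC3 rose (2.43) beside RPF1, a large subunit assembly gene that fell (-1.20). Probe sequences and strands are not held, so signal shared between neighbours was not tested.

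The largest means that did not pass were RRP12, of ribosome export (-1.66, -0.52 and -1.52; mean -1.23 ± 0.38, adjusted p = 0.0579), and SUR1, of sphingolipid mannosylation (-1.18 ± 0.36, 0.0575), with TAF1 (2.45, 0.60 and 0.47; mean 1.17 ± 0.39, 0.0779), CIT1, the mitochondrial citrate synthase (2.08, 0.81 and 0.58; mean 1.15 ± 0.37, 0.0652), and NNR1 (1.15 ± 0.35, 0.0549). Without replicate 1 the means of TAF1 and CIT1 were 0.54 and 0.69. Just outside the threshold lay CAF20, an inhibitor of initiation (-0.96 ± 0.29, 0.0522), and PRE6, a proteasome subunit (0.21, 1.75 and 1.45; mean 1.13 ± 0.34, 0.0549).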
